A study of Drosophila melanogaster with 21 samples.

Results

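The classical genes of the cyclic AMP (cAMP) memory pathway of Drosophila melanogaster, 9 of the 17559 genes in the deposited table, were followed in the heads of single female flies. They are the adenylyl cyclase rut (rutabaga), the phosphodiesterase dnc (dunce), the catalytic subunit Pka-C1 and the regulatory subunits Pka-R1 and Pka-R2 of the cAMP-dependent protein kinase (PKA), the PKA anchor Akap200, the transcription factor CrebB, its coactivator Crtc, and Nf1 (neurofibromin). They were chosen by name, with earlier results of these data known, and all 9 were found in the table by their current symbols. The heads fell into 4 groups, with 1 library for each head and 1 head for each fly. They comprised 5 heads from flies collected 4 hours after training, 6 heads from flies collected 1 hour after training, 5 heads from flies that were starved but not trained (starved), and 5 heads from flies that were neither starved nor trained (naive). Training paired an odor with sucrose in flies that had been deprived of food for about a day. The trained flies had thus also been given odor and sugar. They were collected 1 or 4 hours later, while starved heads are labelled 0 hours. Feeding after training is not given in the labels. Training, exposure to odor or sugar, and the time since cannot be told apart in these comparisons. The genotype and age of the flies are not given in the labels, and the sex is given in the Methods.

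In this pathway a cyclase makes cAMP from ATP and phosphodiesterases break it down. cAMP binds to the regulatory subunits of PKA and frees the catalytic subunits, which phosphorylate channels, synaptic proteins and transcription factors such as CREB. In flies, mutations in rut and dnc, isolated in screens for poor olfactory learning, disturb memory from opposite sides of the cAMP level, and the pathway acts mainly in the mushroom body, the center of olfactory memory. A whole head holds many other cells (eye, glia, fat, muscle), so these values average over all of them, and fewer cells of a type cannot be told apart from less RNA per cell.

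Values are RPKM, reads per gene length scaled to a size set for each library. That library size was between 0.813 (naive replicate 2) and 1.135 (starved replicate 3) times the reads on genes. The values are thus not scaled to these reads alone. The gene length covers the exons of all transcripts, such as 16683 bases for dnc (17 transcripts) and 9618 for rut (7 transcripts). Levels of different genes therefore also depend on this length. Each library held between 36019296 and 67792568 reads on genes (median 48817711). For the 9 genes the lowest count in any head was 2337 reads (Crtc), so counting error was at most 2.07% of a level, below the spread between heads of any group. The test was limma on log2(RPKM + 1) in a joint fit of the 21 heads. A gene was called when its p, after Benjamini-Hochberg adjustment over the 10501 genes tested, was below 0.05. All 9 genes were among those tested. A single library stood apart: small structural RNAs made up 4.10% of the reads of naive replicate 2, against at most 0.613% in the other heads. This head also had 54.2 RPKM of the noncoding RNA roX2, against at most 0.830 RPKM elsewhere. roX2 and roX1 were listed as RNAs of male dosage compensation, expected to be low in females. roX1 was at 2.00 RPKM in this head, within the 1.81 to 3.49 RPKM of the others. The reason for this difference was not tested. Reads were more concentrated in naive heads, where the top 10 genes held 15.6% to 19.5% of them, against 10.5% to 13.5% elsewhere. Rescaling all heads to the same total RPKM sets the library size of the deposited values aside. It moved the median difference of all genes from naive heads by 0.27 to 0.31 on the log2 scale. Differences from naive heads as large as this depend on the scaling.

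The 9 genes lay in the upper part of the expressed genes. Pka-C1 was the highest, with a median of 63.8 RPKM over the 21 heads, above 90.2% of the genes tested, and its lowest head (57.5 RPKM) exceeded every head of Pka-R1. Pka-R1 (41.5 RPKM), Akap200 (41.4 RPKM) and Pka-R2 (40.0 RPKM) followed with overlapping ranges and could not be ordered. Then came rut with 30.9 RPKM and dnc with 20.4 RPKM, and rut was the higher in 21 of 21 heads. Nf1 (17.0 RPKM) and CrebB (16.1 RPKM) overlapped, with Nf1 higher in 13 of 21 heads. Crtc was the lowest at 13.6 RPKM, still above 55.8% of the genes tested.

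Set beside related genes, rut overlapped Ac3 (median 29.9 RPKM) and had a higher median than the other cyclases measured, Ac76E (14.9 RPKM), Ac13E (10.7 RPKM) and Ac78C (3.97 RPKM). The cyclases ACXA to ACXE had medians of at most 0.676 RPKM and were not tested. Among phosphodiesterases dnc did not have the highest RPKM: Pde1c had 81.3 RPKM and Pde6 28.5 RPKM. The catalytic subunit Pka-C1 had about 2 times the level of Pka-C3 (31.5 RPKM), and Pka-C2 had a median of 0.0423 RPKM. Of the anchors, Akap200 was followed by rg (30.9 RPKM), spoon (19.6 RPKM) and nvy (6.57 RPKM). The ranges over heads show that Akap200 varied most of the 9 genes: its heads ran between 20.6 and 98.1 RPKM, while Pka-R2, at a like median, ran between 35.2 and 45.5 RPKM.

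**Figure D1:**
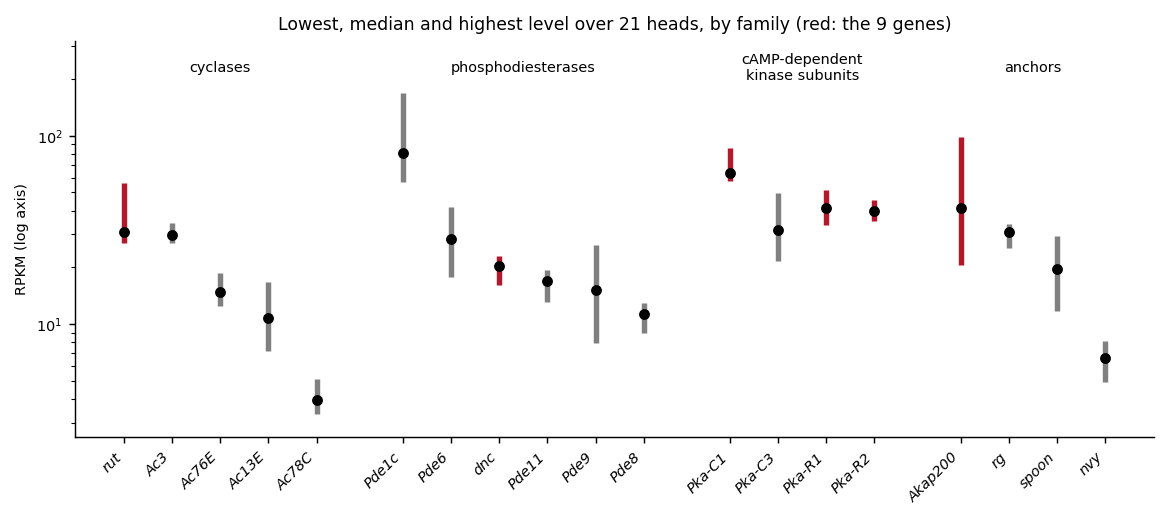
Level in RPKM (log axis) of the cyclases, phosphodiesterases, PKA subunits and anchors over 21 heads. The bar of each gene spans its lowest to its highest head and the dot marks its median. Akap200 spans 20.6 to 98.1 RPKM, a wider range than that of Pka-R2, which spans 35.2 to 45.5 RPKM.

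At 4 hours after training, compared with starved heads, Akap200 was about 2 times higher and the PKA subunits Pka-R1 and Pka-C1 were about 20% lower. These were 3 of the 9 genes, where 6.37% of all genes tested were called in this comparison. The other 6 genes were not called, and all of them had a mean below that of starved heads, so 8 of the 9 differences were negative, with a median of -0.12 on the log2 scale. Over all genes tested the median was 0.0016, and 49.5% of the differences were negative. The median of the 9 genes was -0.078 with heads scaled to a common 75th percentile and -0.088 with the same total RPKM. Several of the 9 genes varied together from head to head, so their signs are not separate observations. All 4-hour heads lay above all starved heads for Akap200 and below them all for Pka-R1, and for the other 7 genes the groups overlapped, where 9.63% of all genes did not overlap. One hour after training no member was called against starved heads (limma adjusted p of 0.23 or more), where 0.552% of all genes were called. Only Pka-C1 of the 9 had an unadjusted p below 0.05 there, beside 1430 of all 10501 genes tested. With voom weights limma also called 0 of the 9.

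**Figure D2:**
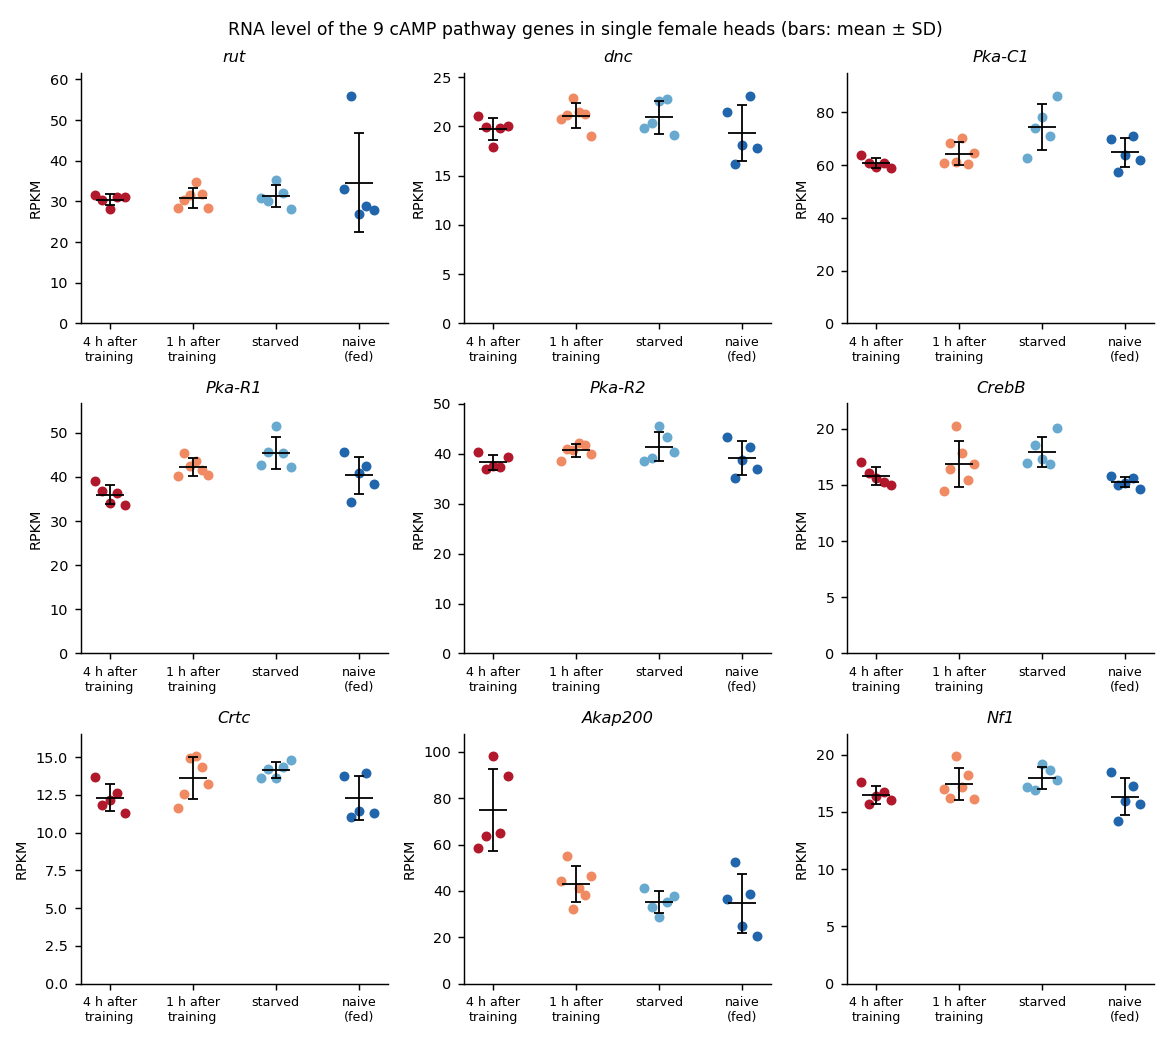
RPKM of each of the 9 genes in every head, in 4 groups (5, 6, 5 and 5 heads, in the order drawn). Points are heads and the black bars give the mean and SD. Akap200 is high in all 5 heads at 4 hours (58.7 to 98.1 RPKM, against 28.6 to 41.4 RPKM in starved heads), and 1 naive head stands apart for rut (55.9 RPKM).

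Akap200 encodes a scaffold that binds a regulatory subunit of PKA and holds the kinase at membranes and the actin cytoskeleton. Its gene (7 transcripts, not told apart here) spans 8415690 to 8431297 on chromosome arm 2L of BDGP6.54, on the plus strand. It measured 58.7, 63.5, 98.1, 64.9 and 89.7 RPKM in the 5 heads at 4 hours, against 41.4, 33.0, 28.6, 35.3 and 37.7 RPKM in starved heads. The lowest 4-hour head was above the highest starved head. The mean was 74.98 ± 17.7 RPKM at 4 hours and 35.2 ± 4.81 RPKM in starved heads (SD, n = 5 each). The log2 difference was 1.05 (standard error 0.21, 95% interval 0.61 to 1.49, limma adjusted p = 0.00689), which put Akap200 at rank 114 of 10501 genes by p.

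The heads 1 hour after training had 44.5, 55.0, 32.0, 41.4, 38.2 and 46.3 RPKM of Akap200, and naive heads had 36.3, 52.6, 24.9, 38.9 and 20.6 RPKM. All 4-hour heads were above these 11 heads too, whereas the 1-hour, starved and naive heads overlapped each other. Against naive heads the log2 difference at 4 hours was 1.14 (limma adjusted p = 0.00988), at rank 32 of 10501 genes. Akap200 was the single member called there, where 3.40% of all genes were called and 8.92% did not overlap. Against the 1-hour heads the difference at 4 hours was 0.78 (95% interval 0.36 to 1.2), but it was not called (limma adjusted p = 0.118). In that comparison 0.0857% of all genes were called and 3.27% did not overlap. At 1 hour Akap200 differed from starved heads by 0.27 (95% interval -0.15 to 0.69), which includes 0.

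Both calls for Akap200 held under all 12 other settings and when any of the 10 heads compared was left out. The log2 difference from starved heads stayed between 0.95 and 1.13 with 1 head left out (limma adjusted p between 0.00505 and 0.0271). Without naive replicate 2, whose 52.6 RPKM was the highest naive value, the difference from naive heads was 1.30. Its exons share 212 of 3972 bases with the gene grk on the opposite strand, and the libraries did not keep the strand. grk averaged 11.2 RPKM at 4 hours, 9.70 RPKM at 1 hour, 9.26 RPKM in starved and 9.12 RPKM in naive heads, levels well below those of Akap200. The spread of Akap200 between heads of a group (SD 0.34 on the log2 scale) was larger than that of 79.0% of the genes tested.

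**Figure D3:**
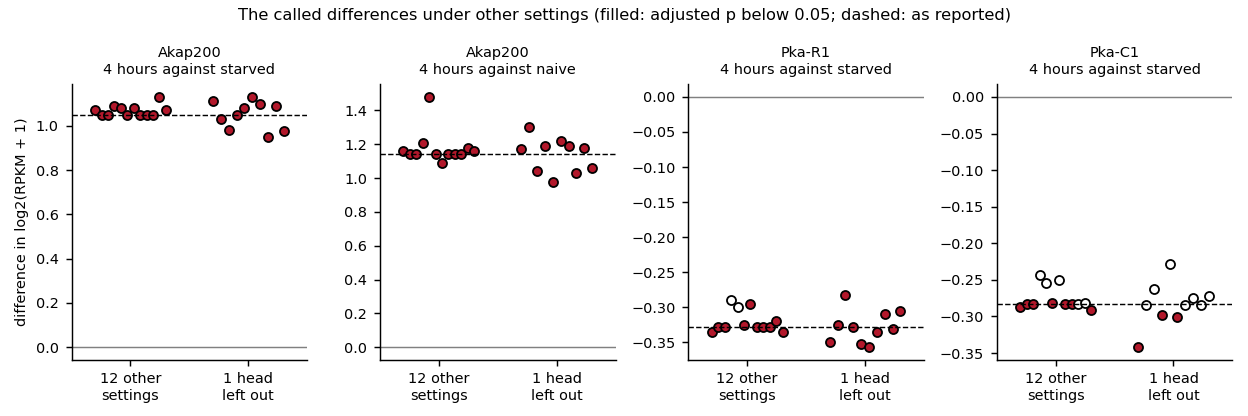
Difference in log2(RPKM + 1) of the 4 called results under 12 other settings and with each of 10 heads left out in turn. Filled points have an adjusted p below 0.05 and the dashed line is the value reported. Akap200 stays filled throughout, Pka-R1 is filled in 10 of 12 settings, and Pka-C1 in 7 of 12 settings and 3 of 10 heads left out.

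Pka-R1, the type I regulatory subunit that holds PKA inactive until cAMP binds, moved the other way. It measured 39.1, 36.8, 34.1, 36.3 and 33.8 RPKM at 4 hours, against 42.6, 45.6, 51.5, 45.3 and 42.3 RPKM in starved heads. Every 4-hour head was below every starved head. The log2 difference was -0.33 (standard error 0.071, 95% interval -0.48 to -0.18, limma adjusted p = 0.00987), or 0.797 times the starved level. The heads 1 hour after training (40.2 to 45.4 RPKM) were also all above the 4-hour heads, but that difference of -0.23 was not called (limma adjusted p = 0.165). Naive heads ran from 34.3 to 45.6 RPKM and overlapped the 4-hour heads. The call against starved heads was lost with heads scaled to a common 75th percentile (limma adjusted p = 0.0988) or a common total (limma adjusted p = 0.426), with differences of -0.29 and -0.30. It was kept with any head left out.

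Pka-C1, the main catalytic subunit, measured 63.8, 60.8, 59.3, 60.8 and 58.7 RPKM at 4 hours, against 62.7, 73.9, 78.4, 71.0 and 86.2 RPKM in starved heads. The groups overlapped through starved replicate 1, and the 4-hour heads lay close together while the starved heads were spread. The log2 difference was -0.28 (95% interval -0.44 to -0.12, limma adjusted p = 0.0335). This call was fragile: it was lost under 5 of the 12 other settings and in 7 of the 10 fits with 1 head left out, where the adjusted p reached 0.0912 (without starved replicate 5). The heads at 1 hour averaged 64.3 ± 4.27 RPKM (SD, n = 6), a difference from starved heads of -0.20 that was not called (limma adjusted p = 0.232).

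Pka-R2, the type II regulatory subunit, on chromosome arm 2R, was steadier. It averaged 38.3 ± 1.47 RPKM at 4 hours, 40.7 ± 1.31 at 1 hour, 41.4 ± 2.91 in starved and 39.1 ± 3.32 in naive heads (SD, n = 5, 6, 5 and 5). Its difference at 4 hours from starved heads was -0.11 (95% interval -0.23 to 0.015), and its spread within groups was smaller than that of all but 7.27% of the genes tested. Within single heads, the ratio of Pka-R1 to Pka-R2 was 0.860 to 0.998 at 4 hours, against 1.05 to 1.16 in starved heads, and these ranges did not overlap. At 1 hour it was 0.995 to 1.11 and in naive heads 0.977 to 1.06. The ratio of Akap200 to Pka-R2 was 1.45 to 2.61 at 4 hours, against 0.629 to 1.07 in starved heads. At 1 hour that ratio was 0.788 to 1.34 and in naive heads 0.557 to 1.495, so 1 naive head reached the 4-hour range. The ratio of Pka-C1 to the summed regulatory subunits was 0.803 to 0.828 at 4 hours and 0.772 to 1.04 in starved heads, which overlapped.

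The cyclase rut, which responds to calcium and calmodulin and is taken as a detector of coincident odor and reward signals, spans 14787478 to 14826073 on the X chromosome of BDGP6.54. It measured 31.5, 30.3, 28.2, 31.1 and 31.0 RPKM at 4 hours, 28.3 to 34.7 RPKM at 1 hour, and 30.9, 30.1, 35.3, 32.0 and 28.0 RPKM in starved heads. The groups lay within each other. The difference between 4-hour and starved heads was -0.036 (95% interval -0.33 to 0.25, limma adjusted p = 0.916). Naive heads had 33.0, 55.9, 26.9, 28.9 and 28.0 RPKM. The head at 55.9 RPKM was naive replicate 2, and no other head of any group exceeded 35.3 RPKM. With that head the differences of rut from naive heads were negative (-0.09 for starved, -0.12 for 4-hour and -0.11 for 1-hour heads). Without it they were positive (0.096, 0.060 and 0.076 in the same order), and none was called either way. The noncoding RNA CR45522 shares 420 of the 9618 exonic bases of rut on the other strand. It measured 4.67 RPKM in naive replicate 2, the lowest of all heads, so it did not rise with rut there.

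The phosphodiesterase dnc, which lowers cAMP, spans 3176440 to 3343767 on the X chromosome. It averaged 19.8 ± 1.12 RPKM at 4 hours, 21.1 ± 1.23 at 1 hour, 20.9 ± 1.67 in starved and 19.3 ± 2.86 in naive heads (SD, n = 5, 6, 5 and 5). The group means were within 10% of each other and all groups overlapped. The difference at 4 hours from starved heads was -0.079 (95% interval -0.25 to 0.090), and dnc was called in none of the 6 comparisons, with limma adjusted p between 0.276 and 0.969. Apart from naive replicate 2, the ratio of rut to dnc stayed between 1.25 and 1.62 in all heads. In naive replicate 2 it was 3.46.

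CrebB, the fly relative of mammalian CREB, measured 17.0, 16.1, 15.6, 15.3 and 14.9 RPKM at 4 hours, 14.4 to 20.2 RPKM at 1 hour, and 17.0, 18.6, 17.3, 16.9 and 20.0 RPKM in starved heads. The naive heads were low and close together, at 15.8, 15.0, 15.2, 15.6 and 14.6 RPKM, and every starved head was above every naive head. The difference between starved and naive heads was 0.22 (95% interval 0.076 to 0.37), but it was not called (limma adjusted p = 0.103). At 4 hours CrebB differed from starved heads by -0.17 and from naive heads by 0.047, neither called (limma adjusted p = 0.144 and 0.726). The exons of CrebB share 344 of 4995 bases with the gene por on the other strand, whose group means lay between 5.68 and 6.23 RPKM.

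Crtc, which is held in the cytoplasm when phosphorylated and joins CREB in the nucleus when freed, followed a like order. It averaged 12.3 ± 0.900 RPKM at 4 hours, 13.6 ± 1.38 at 1 hour, 14.1 ± 0.520 in starved and 12.3 ± 1.43 in naive heads (SD, n = 5, 6, 5 and 5). The starved heads (13.6 to 14.8 RPKM) and the 4-hour heads (11.3 to 13.7 RPKM) overlapped through 4-hour replicate 1 alone. The differences were -0.19 at 4 hours against starved and 0.19 for starved against naive, and neither was called (limma adjusted p = 0.149 and 0.180). Nf1, a Ras GTPase-activating protein that in flies is also needed for normal cAMP signalling and learning, averaged 16.5 ± 0.753 RPKM at 4 hours, 17.4 ± 1.41 at 1 hour, 17.9 ± 0.972 in starved and 16.3 ± 1.62 in naive heads (SD, n = 5, 6, 5 and 5). Its difference at 4 hours from starved heads was -0.12 (95% interval -0.25 to 0.022), and it was called nowhere.

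Starvation alone called no member. Between starved and naive heads 0 of the 9 genes passed the adjusted threshold, also with voom weights, where 1.51% of all genes tested were called. At an unadjusted p below 0.05 there were 4 (Pka-C1, Pka-R1, CrebB and Crtc), each higher in starved heads by 0.17 to 0.22. Of all 10501 genes tested, 2041 had such a p. In all, 8 of the 9 differences were positive with a median of 0.13, against a median of -0.0015 over all genes, and with the same total RPKM all 9 were positive, and CrebB was called, while the median of all genes had shifted by 0.28. CrebB was the member whose groups did not overlap, where 4.03% of all genes did not. One hour after training no member was called against naive heads, with 0 at an unadjusted p below 0.05 and 0 with voom weights. In that comparison 8.98% of all genes were called, and 2959 of the 10501 had an unadjusted p below 0.05. There 7 of the 9 differences were positive. With the same total RPKM all 9 were positive and 2 were called (Akap200 and CrebB), while the median of all genes had shifted by 0.27. The comparisons of 4 hours with starved and of starved with naive heads share the starved heads, so their opposite signs are not separate observations. Against naive heads, the 4-hour differences of the members other than Akap200 lay between -0.16 and 0.047.

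**Figure D4:**
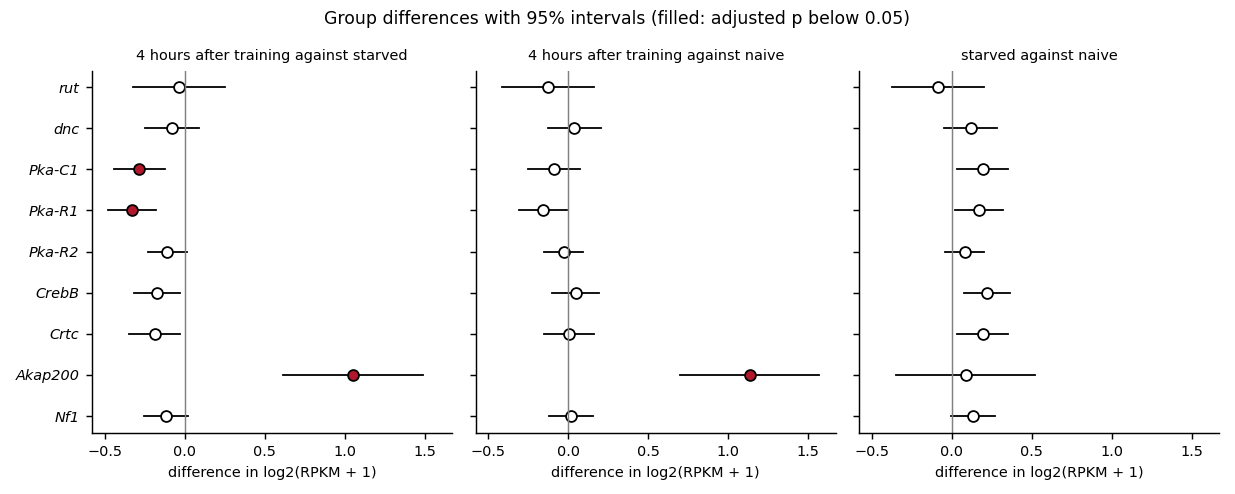
Differences in log2(RPKM + 1) with 95% intervals for the 9 genes in 3 comparisons, each named with its first group over its second. Filled points have an adjusted p below 0.05. At 4 hours against starved heads Akap200 lies at 1.05 and the other 8 genes lie between -0.33 and -0.036, and between starved and naive heads no gene is filled.

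A wider list of 58 pathway genes was written around the 9 (other cyclases, phosphodiesterases, kinases and cAMP sensors, anchors, G proteins, calcium signalling, transcription, Ras signalling and other memory genes). Of these, 54 were in the table by name and 47 passed the filter on low values. At 4 hours against starved heads 0 rose and 3 of the 47 fell, beside the 6.37% called among all genes. Pde8, a cAMP phosphodiesterase, ran from 8.92 to 10.6 RPKM at 4 hours and from 11.3 to 12.5 RPKM in starved heads. Its log2 difference was -0.24 (limma adjusted p = 0.00941). jeb, the secreted ligand of the receptor Alk, ran from 12.1 to 13.9 RPKM at 4 hours and from 16.2 to 19.1 RPKM in starved heads. Its log2 difference was -0.40 (limma adjusted p = 0.0104). Epac, an exchange factor for Rap that cAMP switches on without PKA, ran from 40.3 to 52.6 RPKM at 4 hours and from 54.6 to 76.2 RPKM in starved heads. Its log2 difference was -0.38 (limma adjusted p = 0.0442). The 4-hour and starved heads did not overlap for these 3 genes, nor for the cyclase Ac13E, whose 4-hour heads were all above the starved heads (log2 difference 0.47) but which was not called (limma adjusted p = 0.0587). These 4 genes are 8.51% of the 47, near the 9.63% of all genes that did not overlap. The calls of Pde8 and jeb held with any head left out, while that of Epac held in 2 of 10 such fits. With the same total RPKM none of the 3 was called, though all 3 differences stayed negative. Over the 47 genes 19 differences were positive and 28 negative, with a median of -0.019.

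One hour after training against naive heads, 4 of the 47 genes rose and 0 fell, beside the 8.98% called among all genes. Pka-C3, another PKA-type catalytic subunit, averaged 38.0 ± 9.13 RPKM (SD, n = 6) at 1 hour and 26.0 ± 4.22 RPKM (SD, n = 5) in naive heads. Its log2 difference was 0.51 (limma adjusted p = 0.0251). CanA1, a catalytic subunit of the phosphatase calcineurin, averaged 4.89 ± 2.24 RPKM (SD, n = 6) at 1 hour and 2.54 ± 0.521 RPKM (SD, n = 5) in naive heads, a log2 difference of 0.66 (limma adjusted p = 0.0388). The phosphodiesterase Pde11 and the cyclase Ac78C rose by 0.22 each (limma adjusted p = 0.0426 and 0.0442). For all 4 the groups overlapped. Each of the 4 calls was lost in 5 to 8 of the 11 fits with 1 head left out, among them that without naive replicate 2, and in the fit of only the 2 groups compared. In the remaining 4 comparisons 0 of the 47 genes passed the limma threshold, also with voom weights. The differences from naive heads depended on the scaling: with the same total RPKM 5 of the 47 genes rose in starved heads, 12 at 4 hours and 12 at 1 hour, and 0 fell. In the fit as reported, 1 of the 47 genes had an unadjusted p below 0.05 at 1 hour against starved, beside 1430 of all 10501 genes tested. Between starved and naive heads there were 12, beside 2041 of all genes. At 4 hours there were 7 against naive, beside 2107, and 5 against 1 hour, beside 1345.

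Markers of head cell types moved with some of these groups. The neuron markers elav, nSyb, brp, Syt1 and Appl (5 of 6 listed were found) were present in every head and summed to 615 to 682 RPKM at 4 hours, 611 to 647 at 1 hour, 595 to 715 in starved and 502 to 684 in naive heads. After scaling every head to the same neuron marker mean, Akap200 was still called at 4 hours against starved heads (1.08, limma adjusted p = 0.0164), as was Pka-R1 (-0.30, limma adjusted p = 0.00311), and Pka-C1 was not (-0.25, limma adjusted p = 0.0700). This scaling was added after the values had been seen. In the fit as reported, brp, Syt1, elav and Appl differed at 4 hours from starved heads by -0.11, -0.077, -0.040 and -0.0050. nSyb differed by 0.065, and none of these 5 markers was called. The 6 photoreceptor markers summed to 20889 to 22970 RPKM at 4 hours, against 14557 to 19488 RPKM in starved heads, with no overlap. That sum was mostly ninaE, the main rhodopsin, at 14043 ± 643 RPKM at 4 hours and 10344 ± 1259 RPKM in starved heads (SD, n = 5 each; limma adjusted p = 0.0464). The other 5 markers overlapped between these groups and were not called, with log2 differences of 0.26 for Arr2, 0.12 for ninaA, 0.030 for norpA, 0.0080 for trp and -0.0073 for ninaC. The 6 markers together were at 18966 to 21630 RPKM at 1 hour and 13949 to 18722 RPKM in naive heads. The 4 muscle markers found summed to 227 to 651 RPKM at 4 hours and 338 to 1251 RPKM in starved heads, and the 4 hemocyte markers to 26.2 to 34.1 RPKM at 4 hours and 31.0 to 56.6 RPKM in starved heads. For the hemocyte markers Hml and NimC1 all 4-hour heads were below all starved heads, but neither was called (limma adjusted p = 0.12 and 0.0605). The groups overlapped for Pxn and He. The 5 head fat body markers found summed to 1293 to 8058 RPKM at 4 hours, 315 to 16541 RPKM at 1 hour and 97.6 to 6012 RPKM in starved heads, against 23106 to 42684 RPKM in naive heads. Of these, fit was called higher at 4 hours against starved heads (log2 difference 3.37, limma adjusted p = 0.0223), with no overlap. Yp1, Yp2, to and apolpp overlapped between these 2 groups and were not called. No marker was at 0 in a whole group. The part of these cell types in the differences of Akap200, Pka-R1 and Pka-C1 was not tested.

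Within groups, several of the 9 genes varied together from head to head. After the group means were removed, 9 of the 36 pairs passed a permutation test by Pearson's r with heads permuted within groups (100000 permutations, adjusted over the 36 pairs), and 10 passed by Spearman's rho. All 9 correlations were positive, and they linked dnc, Pka-R1, Pka-R2, Nf1, Crtc and CrebB. By r the closest pair was the 2 regulatory subunits, Pka-R1 and Pka-R2, with r = 0.807 (permutation p = 0.00032, adjusted p = 0.00576) and rho = 0.703 (permutation p = 0.00246, adjusted p = 0.0177). Without naive replicate 2 and starved replicate 3, the heads farthest from the median of Pka-R1, r was 0.694. dnc went with Pka-R2 (r = 0.795, permutation p = 0.00108, adjusted p = 0.00864; rho = 0.796, permutation p = 0.00077, adjusted p = 0.0163), and r was 0.745 without naive replicates 5 and 2. CrebB went with its coactivator Crtc (r = 0.647, permutation p = 0.00148, adjusted p = 0.00888; rho = 0.587, permutation p = 0.00457, adjusted p = 0.0235), and r was 0.516 without 1-hour replicates 3 and 1. No pair with rut or Akap200 passed, with adjusted p of 0.277 or more. The r of rut and Akap200 (0.408, permutation p = 0.307, adjusted p = 0.503; rho = -0.0325, permutation p = 0.905, adjusted p = 0.938) rested on naive replicates 2 and 3 and was -0.138 without them. Pka-R1 and Akap200, which were called in opposite directions at 4 hours against starved heads, had r = -0.378 within groups (permutation p = 0.202, adjusted p = 0.384; rho = -0.387, permutation p = 0.123, adjusted p = 0.277), and r was -0.091 without naive replicate 2 and starved replicate 3. The 2 levels of a pair come from the same library and share its depth and composition. The share of pairs that would pass among all genes was not computed, so these counts do not set the 9 genes apart from other genes. Among the genes picked as most like a member, within-group r was, for example, 0.926 for Pka-R2 with dysc and 0.939 for Nf1 with wdb. These genes were picked as the highest of all genes tested over the same heads. They can therefore not be weighed against the pairs of members.

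**Figure D5:**
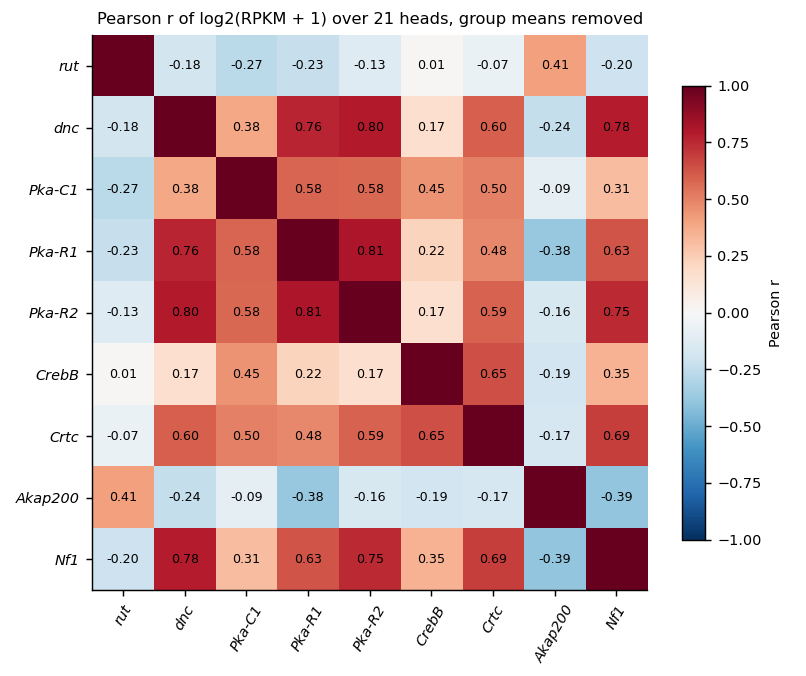
Pearson's r of log2(RPKM + 1) between each pair of the 9 genes over 21 heads after the group means were removed. Red cells are positive and blue cells negative. Pka-R1 and Pka-R2 reach 0.81, and rut and Akap200 are at 0.41 with each other, a value that is -0.138 without naive replicates 2 and 3.

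Among all genes tested, those whose pattern over the 21 heads was most like that of a member were listed by Pearson's r, leaving out genes with shared exons. For rut these were tou (r = 0.968) and toc (r = 0.967), and without naive replicate 2 these values were 0.847 and 0.852. dnc was closest to the noncoding RNA CR44886 (r = 0.976), whose span overlaps that of dnc on the other strand, and to the calcium-activated potassium channel gene slo (r = 0.914). CR44886 averaged 1107 RPKM over the 21 heads, against 20.3 RPKM for dnc. Their annotated exons do not overlap, but the libraries did not keep the strand. The part of reads from CR44886 in the dnc level was not tested. Pka-R2 was closest to dysc (r = 0.941) and sif (r = 0.933), Pka-R1 to Cad87A (r = 0.911) and kibra (r = 0.910), and Nf1 to wdb (r = 0.922) and ari-1 (r = 0.912). Pka-C1 was closest to Dpy-30L2 (r = 0.884) and MsR1 (r = 0.857), CrebB to RN-tre (r = 0.862) and Pi3K92E (r = 0.847), and Crtc to Ziz (r = 0.860) and Ptp99A (r = 0.848). Akap200 had the weakest matches, CG18048 (r = 0.805) and CG5757 (r = 0.803). These are the highest of 10501 values over 21 heads and are given as a description.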

How the data were processed

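Single female heads were sequenced as non-stranded polyA libraries. The authors deposited RPKM values per gene and head. For the processing by the authors, their notes name CASAVA 1.8.2, TopHat2 2.0.13, edgeR 3.18.1 and dm6, and another Methods paragraph names TopHat with dm3. In each of the 17212 genes above 0 in any head, the values were whole multiples of 1 read (within 0.02 read), so reads could be recovered. No column was left unused. Replicates of a group all differed beyond counting noise (chi-square per gene of at least 22.0).

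All heads entered a single model on log2(RPKM + 1), fitted with limma 3.58.1 (R 4.3.3; eBayes with trend). Genes needed an RPKM of 1 or more in 5 or more heads, which left 10501. Differences on this scale understate changes of low genes. The fit was tested on simulated reads with changes larger than those of the members, a common spread and no difference in composition between groups. That test checks the code and not the calls of these genes. Other settings were a lower pseudocount (0.1), testing unfiltered genes, a minimum mean RPKM of 5, 4 rescalings, eBayes without trend, robust eBayes, 2 groups only, the replicate block, voom weights on recovered reads, and leaving out each head. Rescaling to neuron markers was added after the data were seen. Tables and figures used Python 3.11.15.

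The members and lists were chosen with earlier results of these data known. Named genes are the 9 members, the pathway genes past the threshold, and the 2 genes most like each member. Genes were placed in BDGP6.54, whose summed exons gave the gene length in the RPKM for 16501 genes. The planned promoter search was not run.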

Additional observations from a re-analysis of the deposited data

Results flagged for a closer look

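One value was far from the rest of its group. rut measured 55.9 RPKM in naive replicate 2, and the other naive heads measured 26.9 to 33.0 RPKM. The gap to the nearest head took up more of the range of the group than Dixon's critical value of 0.71 for 5 heads. In all, 36 groups of heads were examined (9 genes in 4 groups), and chance flags about 1 in 20. The same head was the lowest of all 21 for dnc (16.2 RPKM), Pka-C1 (57.5 RPKM), Pka-R2 (35.2 RPKM), Crtc (11.1 RPKM) and Nf1 (14.2 RPKM), and its share of small structural RNA (4.10%) was the highest. The part of that share in these levels was not tested.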

How the results depend on the processing

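No called difference of the 9 genes changed sign under any alternative. Of all 54 member differences, 16 changed sign under at least 1 alternative, none of them called there (limma adjusted p of 0.111 or more), and the largest of these was 0.16 in size as reported. With the same total RPKM, Pka-R2 was at 0.319 (4 hours against naive, the lowest adjusted p of these), rut at 0.23 (starved against naive), 0.22 (4 hours against naive), 0.19 (1 hour against naive) and 0.033 (4 hours against 1 hour), Pka-C1 at 0.26 (4 hours against naive) and 0.29 (1 hour against naive), Pka-R1 at 0.19 (4 hours against naive) and dnc at -0.0079 (1 hour against starved). With the same 75th percentile, rut was at 0.0019 (4 hours against starved) and 0.046 (4 hours against 1 hour), dnc at -0.011 (1 hour against starved) and Pka-R2 at 0.041 (4 hours against naive). With neuron marker scaling, rut was at 0.021 and Pka-R2 at 0.020 (1 hour against starved), and dnc at -0.0063, Crtc at -0.038 and Nf1 at -0.029 (4 hours against naive). With the replicate block, rut was at 0.034 (4 hours against starved), 0.0046 (1 hour against starved) and 0.030 (4 hours against 1 hour), Crtc at -0.021 and Nf1 at -0.012 (4 hours against naive). With 1 head left out, rut ran from -0.073 to 0.0072 (4 hours against starved), -0.058 to 0.023 (1 hour against starved), -0.039 to 0.018 (4 hours against 1 hour), -0.16 to 0.096 (starved against naive), -0.20 to 0.060 (4 hours against naive) and -0.18 to 0.076 (1 hour against naive), Pka-C1 from -0.051 to 0.023 (1 hour against naive), dnc from -0.018 to 0.042 (1 hour against starved) and -0.020 to 0.103 (4 hours against naive), Pka-R2 from -0.045 to 0.012 (1 hour against starved) and -0.065 to 0.0091 (4 hours against naive), Crtc from -0.030 to 0.0496 and Nf1 from -0.029 to 0.060 (4 hours against naive), and Akap200 from -0.076 to 0.25 (starved against naive). With the neuron marker scaling Pka-R1 was also called at 4 hours against naive (-0.20, limma adjusted p = 0.0333) and against 1 hour (-0.24, limma adjusted p = 0.0243). With the same total RPKM CrebB was called between starved and naive heads (0.53, limma adjusted p = 0.0371), at 4 hours against naive (0.38, limma adjusted p = 0.0466) and at 1 hour against naive (0.42, limma adjusted p = 0.0374), and Akap200 at 1 hour against naive (0.65, limma adjusted p = 0.0239). These 6 were the only member calls gained under any of the alternatives. Over the 12 other settings, the calls among the 47 pathway genes numbered 0 to 3 at 4 hours against starved and 0 to 12 at 1 hour against naive.

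Counts of changed genes over all genes moved more. At 4 hours against starved (669), they were 383 with neuron marker scaling, 355 with the replicate block and 290 to 803 with 1 head left out. At 1 hour against starved (58), they were 34 without a filter, 3 with only the 2 groups, 9 with the replicate block and 30 to 139 with 1 head left out. Between starved and naive (159, 37.1% higher), they were 79 without a filter, 855 with the same total RPKM (91.0% higher), 38 with neuron marker scaling, 14 with only the 2 groups, 54 with the replicate block, 79 with voom and 28 to 784 with 1 head left out. At 4 hours against naive (357, 50.1% higher), they were 227 without a filter, 3275 with the same total RPKM (96.1% higher), 157 with neuron marker scaling (36.3% higher), 87 with the replicate block and 60 to 474 with 1 head left out. At 1 hour against naive (943, 57.2% higher), they were 2163 with the same total RPKM (95.1% higher), 427 with neuron marker scaling, 131 with only the 2 groups and 278 to 1655 with 1 head left out. At 4 hours against 1 hour (9), they were 25 with the same 75th percentile, 4 with the same total RPKM, 42 with neuron marker scaling, 15 with only the 2 groups, 30 with the replicate block, 16 with voom and 4 to 15 with 1 head left out. Same-numbered heads are different flies. Over 27 same-numbered pairs the correlation of their deviations ran from -0.42 to 0.28 with a median of -0.026, and 8 pairs were over 0.1. Of 21 heads, 2 correlated best with their own number. These values show no general pairing by number. Whether same-numbered heads shared a batch is not given in the labels. Under the replicate block Pka-C1 lost its call at 4 hours against starved (limma adjusted p = 0.0975) and Akap200 (1.13) and Pka-R1 (-0.32) kept theirs.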
